A study of Homo sapiens with 27 samples.

Results

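The 10 genes described here encode the Crumbs, Par and Scribble polarity complexes and an apical recycling GTPase. They were chosen by name as CRB3 and PATJ of the Crumbs complex, PARD3, PARD6B, PRKCI and PRKCZ of the Par complex, LLGL1, LLGL2 and SCRIB of the Scribble complex, and RAB25, and all 10 were found among the 57165 genes of the deposited table. Transcripts were measured by RNA-seq in the SUM159 and the MDA-MB-231 line, established human triple negative breast cancer (TNBC) cell lines with mesenchymal features. The 27 libraries formed 9 groups of 3. In each line, wild type cells were untransduced, No gRNA cells carried a puromycin-selected lentiviral dCas9-KRAB vector without a guide, and the ZEB1-targeted cells carried dCas9-KRAB with guides against the ZEB1 promoter. dCas9-KRAB is a catalytically dead Cas9 fused to a repressor domain, which lowers transcription where its guide places it. In SUM159 the targeted groups were gRNA 4 and the pool of 4 guides (All gRNA), sequenced in run 1 with No gRNA and a set of wild type libraries. All MDA-MB-231 libraries and a further 3 SUM159 wild type libraries were sequenced in run 2, so that line and run cannot be told apart for the dCas9-KRAB groups. For 6 MDA-MB-231 libraries the labels disagree: in set 1 the titles give gRNA 4 and the data columns give the pool, and in set 2 the reverse. Both sets carried ZEB1 guides and were kept apart under these names. The study describes its RNA-seq replicates as individual clones, so that differences between clones are part of the spread between libraries.

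Epithelial cells separate an apical from a basolateral surface. The Crumbs complex, with the membrane protein CRB3 and the scaffold PATJ, marks the apical side, and the Par complex of PARD3, PARD6 and an atypical protein kinase C (PRKCI or PRKCZ) acts at the boundary and phosphorylates its neighbours. The Scribble complex of SCRIB, DLG and LLGL proteins holds the basolateral side, and the complexes exclude each other. RAB25, a relative of RAB11, recycles membrane cargo to the apical surface of epithelial cells. ZEB1 is a transcription factor of the epithelial-mesenchymal transition that binds E-box sequences such as CAGGTG and CAGGTA, and CRB3, PATJ and LLGL2 are known as genes that it represses. The comparison of targeted with No gRNA cells asks how transcripts of this group differ when ZEB1 is silenced.

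ZEB1 itself was low in all targeted libraries. It was between 0.374 and 4.54 CPM (estimated counts scaled to a common library size) in the 6 targeted SUM159 libraries and between 70.4 and 83.6 CPM in the other 9. In MDA-MB-231 it was between 3.75 and 5.77 CPM in the 6 targeted libraries and between 65.3 and 121.7 CPM in the other 6. Library totals lay between 15461200 and 21473757 estimated counts, and replicate libraries correlated at a Pearson r between 0.981 and 0.988 across genes. ESR1 and PGR, the hormone receptors that TNBC lacks, had group means of at most 0.120 and 0.320 CPM, while ERBB2 was between 42.0 and 63.8 CPM. VIM, the mesenchymal intermediate filament, had group means between 1326 and 4055 CPM. In wild type cells CDH1 was at most 0.0810 CPM, but CLDN4 was 65.9 CPM and EPCAM 12.2 CPM in wild type MDA-MB-231, against 0.742 CPM or less and 0.168 CPM or less in wild type SUM159. EPCAM went from 12.6 CPM in MDA-MB-231 No gRNA to 291.5 CPM in set 1 and 384.3 CPM in set 2, CDH1 from 0.495 to 17.9 and 3.04 CPM, and VIM was 2384, 1326 and 2535 CPM. The claudins differed less. Their ratios of mean CPM to No gRNA in set 1 and set 2 were 1.86 and 2.38 for CLDN3, 2.02 and 1.74 for CLDN4, and 2.19 and 1.05 for CLDN7. CLDN7 was not low in MDA-MB-231 No gRNA, with 2092.3 estimated counts summed over the group. The leukocyte marker PTPRC was at most 0.196 CPM in any group, and the endothelial gene PECAM1 was 2.67 CPM in SUM159 No gRNA, 6.06 CPM with gRNA 4 and 6.53 CPM with All gRNA. The share of counts from mitochondrial genes was between 1.40% and 1.69% in the targeted MDA-MB-231 libraries and between 1.97% and 2.43% in No gRNA. The part of these shifts in the results below was not tested.

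The start sites of several of these genes carry the letters that ZEB1 recognizes, and they are shown because the genes that carry them responded unequally. Of the 10 genes, 6 had a window in the set of RefSeq promoter windows used here (GRCh38.p14), with 9 windows in all because PRKCZ has 4. The set held no window for LLGL2, PARD3, PARD6B and SCRIB, so their start sites were not searched. In the 250 bases before each start site, CAGGTG and CAGGTA were searched on both strands, on which the reverse strand reads CACCTG and TACCTG. At least 1 copy was present in 23.8% of 35116 windows, at least 2 in 4.27%, and at least 5 in 0.0968%. CRB3 had 5 copies, PATJ had 2, RAB25 had 1, and the first PRKCZ window had 5. The last PRKCZ window had 1 copy, and no copy was found for PRKCI, LLGL1 or the other two PRKCZ windows. An alternative first exon of CRB3 covers 193 of its 250 bases (GENCODE v44), so only short stretches around its E-boxes are given. All 5 CRB3 copies lie within this exon or, for the last, across its end at 6464213. A match is a description of letters in these windows and not of a bound site. In the sequences below, 5′ to 3′ on the plus strand of GRCh38.p14, E-boxes are in capitals.
CRB3, chr19:6464041-6464070: tgCAGGTGtaaggtccccctcaCACCTGcg
CRB3, chr19:6464112-6464141: ggggtcccgttaCAGGTGcgcccacagcgc
CRB3, chr19:6464170-6464199: ctcagcgaggctCAGGTGcacaagccggaa
CRB3, chr19:6464202-6464225: gcgctctccCAGGTGagtgactaa
PATJ, chr1:61742230-61742476: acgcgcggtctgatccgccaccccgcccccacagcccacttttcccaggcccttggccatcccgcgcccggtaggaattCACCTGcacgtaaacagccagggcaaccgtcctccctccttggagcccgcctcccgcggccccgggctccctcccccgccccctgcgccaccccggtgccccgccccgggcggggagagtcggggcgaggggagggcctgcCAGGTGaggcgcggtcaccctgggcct
PRKCZ, chr1:2050161-2050410: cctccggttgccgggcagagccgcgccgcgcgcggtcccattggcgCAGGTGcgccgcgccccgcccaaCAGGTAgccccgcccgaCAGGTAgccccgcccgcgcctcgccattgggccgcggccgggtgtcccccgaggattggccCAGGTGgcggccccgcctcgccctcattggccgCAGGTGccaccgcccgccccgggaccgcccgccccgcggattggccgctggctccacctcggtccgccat
RAB25, chr1:156060910-156061159: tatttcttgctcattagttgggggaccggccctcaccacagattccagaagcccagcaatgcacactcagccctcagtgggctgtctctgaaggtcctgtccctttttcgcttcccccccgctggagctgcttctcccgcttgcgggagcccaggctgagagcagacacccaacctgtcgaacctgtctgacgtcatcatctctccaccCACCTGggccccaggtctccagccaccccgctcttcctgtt

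In MDA-MB-231, CRB3, PATJ, LLGL2, PARD6B and SCRIB were higher in both ZEB1-targeted sets than in No gRNA. SCRIB in set 1 was at the level of wild type cells (63.5 and 64.5 CPM), and the PARD6B calls depended on single libraries. In SUM159 only PATJ passed a limma test, while LLGL2 was above No gRNA in every targeted library without passing one. Each comparison with No gRNA was read in the same limma fit against a change of 0 (the moderated test) and against a 2-fold change (TREAT, which asks for a log2 fold change beyond 1), with adjusted p under 0.05 over all genes tested. In set 1, 7 of the 9 genes with enough counts to be tested were higher by the moderated test and 0 were lower, beside 20.4% higher and 17.3% lower of 15721 genes. TREAT called 1 gene, CRB3, against 1.1% of all genes that were higher. In set 2 the moderated test called 5 higher and 0 lower, with 27.3% higher and 25.1% lower over all genes, and TREAT called 2, CRB3 and LLGL2, against 1.74%. CRB3 passed the filter on low counts through the targeted groups alone, so its presence among the genes tested already depends on a difference. In these bulk samples, a higher share of expressing cells and more RNA per cell cannot be told apart.

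In SUM159, 7 of the 10 genes were tested, since CRB3, PRKCZ and RAB25 had too few counts. The moderated test called 1 higher, PATJ, and 0 lower with All gRNA, against 5.93% higher and 4.9% lower of 15147 genes. With gRNA 4 it again called PATJ alone, against 6.1% higher and 4.91% lower. TREAT called 0 of 7 in either comparison, where 0.33% and 0.297% of all genes were called higher, and at an unadjusted TREAT p under 0.05 the count was also 0. edgeR's and DESeq2's tests against the same threshold called 0 as well. At an unadjusted moderated p under 0.05 there were 3 genes with All gRNA and 2 with gRNA 4. The median log2 fold change over the genes tested was 0.08 with All gRNA and 0.12 with gRNA 4 in SUM159, and 0.55 in set 1 and 0.53 in set 2, where the medians over all genes were 1e-04, -7e-04, -0.01 and -0.01. Targeted groups of a line share their No gRNA libraries.

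**Figure D1:**
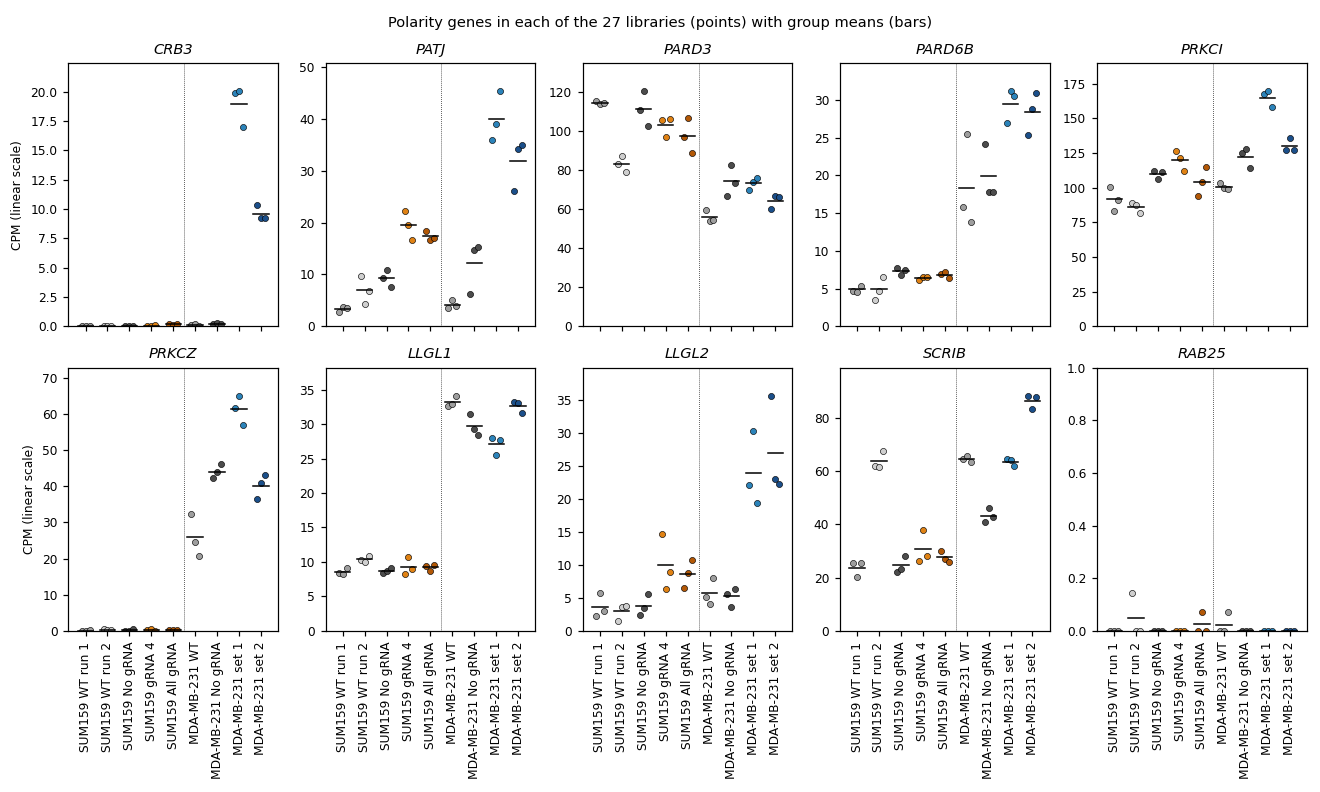
CPM (linear scale, a separate range for each gene) of the 10 genes in the 27 libraries, with points for libraries and bars for group means of 3; the dotted line separates SUM159 from MDA-MB-231. CRB3 is near 0 except in set 1 and set 2, where the means are 19.0 and 9.62 CPM, and RAB25 is near 0 in every group.

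CRB3, the transmembrane anchor of the apical Crumbs complex (ENSG00000130545, chromosome 19, 6463777 to 6467221), went from nearly no reads to clear expression in MDA-MB-231. It was 0.102, 0.232 and 0 CPM in wild type cells and 0.233, 0.251 and 0.226 CPM in No gRNA, with 4.12, 4.57 and 4.09 estimated counts in the latter. It was 19.9, 20.0 and 17.0 CPM in set 1 and 10.3, 9.28 and 9.25 CPM in set 2. All targeted libraries lay far above all wild type and No gRNA libraries, and set 1 lay above set 2 without overlap. The ratio of mean CPM to No gRNA was 80.0 in set 1 and 40.6 in set 2, and the fitted log2 fold changes were 6.16 ± 0.42 (SE, TREAT adjusted p = 1.40e-05) and 5.19 ± 0.43 (TREAT adjusted p = 4.29e-05). The small counts in No gRNA make these ratios uncertain. Because CRB3 passed the filter on low counts through the targeted groups alone, its TREAT p-values were conditioned by the filter. The differences from No gRNA are therefore given as a description. CRB3 was 0.97 ± 0.13 higher on the log2 scale in set 1 than in set 2 (moderated adjusted p = 9.81e-05).

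In SUM159 the same gene stayed within 4.55 estimated counts in all 15 libraries. It was listed at 0 in all 3 No gRNA libraries, at 1.32, 0.780 and 1.69 estimated counts with gRNA 4, and at 4.27, 1.68 and 4.55 with All gRNA. The targeted libraries were thus above No gRNA, with a summed count of 10.5 over the All gRNA group and 3.78 over the gRNA 4 group. With a floor of 3 counts in place of the 0 of the No gRNA group, the lower bound of the ratio was 3.29 for All gRNA and 1.24 for gRNA 4. These bounds leave out the counting error of the targeted sums, which is large at so few counts. Untransduced SUM159 cells had 0, 0 and 1.33 estimated counts in run 1 and 0, 0.540 and 0 in run 2, so that wild type and gRNA 4 libraries overlapped. The highest SUM159 value, 0.244 CPM in an All gRNA library, was far below the targeted MDA-MB-231 cells.

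PATJ, the multi-PDZ scaffold that links CRB3 and PALS1 to the tight junction (ENSG00000132849, chromosome 1, 61742477 to 62178675), was the member of the group called by the moderated test in all 4 comparisons. Among SUM159 libraries it was 9.29, 10.9 and 7.68 CPM without a guide, 18.4, 16.7 and 17.0 CPM with All gRNA, and 22.3, 19.5 and 16.6 CPM for gRNA 4. The MDA-MB-231 values were 6.23, 14.8 and 15.3 CPM without a guide, 35.9, 38.9 and 45.2 CPM for set 1, and 26.1, 34.2 and 34.97 CPM for set 2. The targeted libraries did not overlap No gRNA in either line. The log2 fold changes were 1.07 ± 0.15 with gRNA 4 and 0.92 ± 0.15 with All gRNA, and 1.81 ± 0.26 in set 1 and 1.49 ± 0.27 in set 2 (SE, limma moderated adjusted p = 6.46e-04, 0.00206, 2.36e-04 and 6.51e-04).

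PATJ was also higher in No gRNA than in wild type cells, which had neither vector nor selection. Wild type SUM159 of run 1 had 2.77, 3.66 and 3.47 CPM and wild type MDA-MB-231 had 3.59, 4.99 and 3.89 CPM, below every No gRNA library of the same line. The log2 difference of No gRNA from wild type was 1.47 ± 0.20 in SUM159 (adjusted p = 1.14e-04) and 1.38 ± 0.39 in MDA-MB-231 (adjusted p = 0.0111), which in SUM159 exceeds the further difference between targeted cells and No gRNA. With wild type as the control, TREAT called PATJ in all 4 targeted groups.

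**Figure D2:**
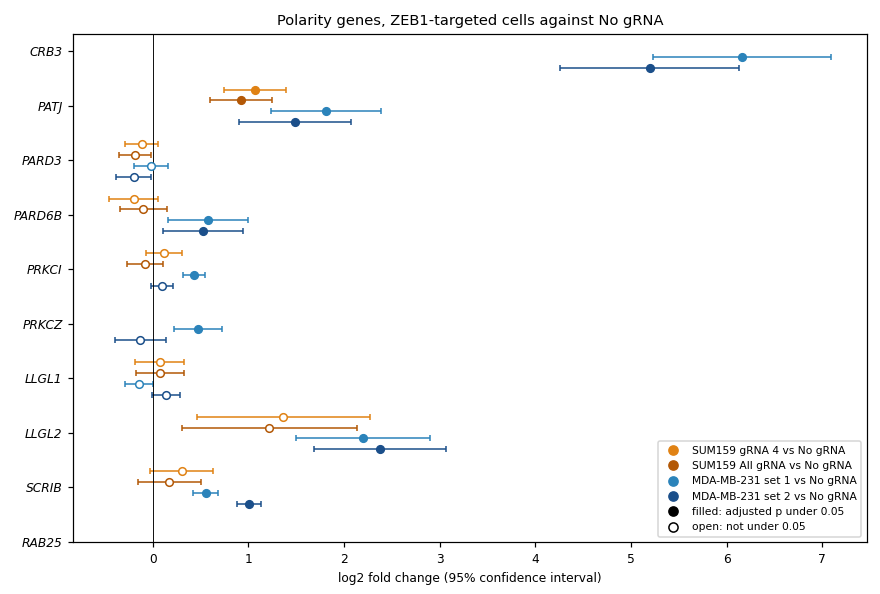
log2 fold change against No gRNA with its 95% confidence interval for the genes tested, in the 4 comparisons of ZEB1-targeted cells; filled points have a moderated adjusted p under 0.05. Genes without a point had too few counts (RAB25 in both lines, CRB3 and PRKCZ in SUM159). CRB3, PATJ and LLGL2 have the highest values, and PARD3 and LLGL1 lie within 0.20 of 0 in all 4.

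LLGL2, the epithelial homologue of the fly tumour suppressor lethal giant larvae (ENSG00000073350, chromosome 17, 75525080 to 75575209), was higher in both targeted MDA-MB-231 sets. It was 5.66, 3.68 and 6.41 CPM in No gRNA, against 22.1, 30.3 and 19.4 CPM in set 1 and 35.7, 23.1 and 22.3 CPM in set 2. Wild type cells had 5.17, 4.11 and 7.97 CPM, so control and targeted libraries did not overlap. The log2 fold changes were 2.20 ± 0.32 in set 1 and 2.37 ± 0.31 in set 2 (moderated adjusted p = 2.46e-04 and 6.64e-05), with TREAT adjusted p = 0.0908 and 0.0170. The TREAT call in set 2 was lost without No gRNA replicate 1 or replicate 2 and with wild type as the control, while edgeR and DESeq2 called the gene against the same threshold in both sets. The sets differed by -0.17 on the log2 scale, with a 95% interval from -0.66 to 0.31.

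In SUM159 LLGL2 was 2.47, 3.41 and 5.62 CPM without a guide, 6.44, 8.78 and 10.7 CPM with All gRNA, and 14.7, 6.38 and 8.996 CPM for gRNA 4. The targeted libraries were all above No gRNA, but one wild type library of run 1, at 5.76 CPM, came close to the lowest of them. The log2 differences were 1.22 ± 0.42 with All gRNA and 1.37 ± 0.41 with gRNA 4, and neither passed the test over all genes (moderated adjusted p = 0.0876 and 0.0570). DESeq2 called the gene in both comparisons and edgeR in neither, and without gRNA 4 replicate 2 the limma test called it with gRNA 4 at a log2 fold change of 1.65.

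LLGL1, the ubiquitous homologue of LLGL2 (ENSG00000131899, chromosome 17, 18225635 to 18244875), passed no test after ZEB1 targeting. The SUM159 group means were 8.76 ± 0.35 CPM (SD, n = 3) without a guide, 9.22 ± 0.47 with All gRNA and 9.32 ± 1.28 for gRNA 4. Those of MDA-MB-231 were 29.8 ± 1.54, 27.1 ± 1.37 and 32.6 ± 0.90 CPM for No gRNA, set 1 and set 2. Scaled to plain library totals, the set 1 value of -0.22 on the log2 scale was called. The 95% intervals of the 4 log2 differences together reached from -0.29 to 0.33. LLGL1 and LLGL2 thus had unlike values in the same libraries: per kb of transcript, LLGL1 was 7.07 CPM and LLGL2 1.48 CPM in MDA-MB-231 No gRNA, and 7.74 and 7.60 CPM in set 2.

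SCRIB, the basolateral scaffold that names the complex (ENSG00000180900), was higher in both MDA-MB-231 sets than in No gRNA. It was 41.0, 46.0 and 42.6 CPM in No gRNA, against 64.6, 64.1 and 61.8 CPM in set 1 and 88.3, 83.2 and 87.7 CPM in set 2, with no overlap between these groups. The log2 fold changes were 0.55 ± 0.06 and 1.01 ± 0.06 (adjusted p = 2.22e-05 and 5.39e-08), and set 1 was below set 2 by 0.45 ± 0.05 (adjusted p = 2.21e-05). Wild type cells, however, had 64.5, 65.5 and 63.5 CPM, which is the level of set 1. Against wild type, set 1 differed by -0.085 on the log2 scale and set 2 by 0.37, and No gRNA itself lay below wild type by 0.64.

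SCRIB also differed most between the runs. SUM159 wild type cells had 25.4, 20.4 and 25.5 CPM in run 1 and 61.9, 61.6 and 67.6 CPM in run 2, a log2 difference of 1.43 ± 0.10 (TREAT adjusted p = 0.0331, with 6.65% of all genes called). This is larger than either difference of SCRIB after ZEB1 targeting. In SUM159, where all 4 groups of the comparison were in run 1, SCRIB was 22.2, 23.2 and 28.3 CPM without a guide, 29.9, 26.8 and 26.0 CPM with All gRNA, and 26.1, 38.0 and 28.3 CPM for gRNA 4. These groups overlapped, and the log2 differences of 0.18 with All gRNA and 0.31 with gRNA 4 passed no test (adjusted p = 0.520 and 0.235).

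Of the Par complex genes, PARD3 passed no test after ZEB1 targeting, PARD6B rose in both MDA-MB-231 sets, and the kinases rose in set 1. PARD3, the scaffold of the complex (ENSG00000148498), lies on chromosome 10, as ZEB1 does, from 34109560 to 34815325. The SUM159 means were 111.3 ± 8.82 CPM (SD, n = 3) without a guide, 97.5 ± 9.08 with All gRNA and 103.0 ± 5.35 for gRNA 4, and the MDA-MB-231 means were 74.3 ± 7.93, 73.3 ± 3.11 and 64.3 ± 3.75 CPM for No gRNA, set 1 and set 2. Targeted and No gRNA values overlapped in all cases but set 2, whose highest library (66.6 CPM) was just under the lowest of No gRNA (66.9 CPM). The lowest bound of the 4 confidence intervals was -0.38 on the log2 scale. In set 2 the gene was called lower, at a log2 fold change of -0.27, when No gRNA replicate 1 was left out.

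PARD6B, the adaptor that binds CDC42 and the kinase (ENSG00000124171, chromosome 20, 50731580 to 50756795), was higher in both MDA-MB-231 sets by a small margin. It was 24.2, 17.8 and 17.8 CPM in No gRNA, against 26.9, 31.1 and 30.5 CPM in set 1 and 25.4, 28.8 and 30.9 CPM in set 2, while wild type cells had 15.8, 25.5 and 13.9 CPM. The targeted libraries were above all No gRNA libraries, and 1 wild type library reached their lower end. The log2 fold changes of 0.58 ± 0.19 and 0.53 ± 0.19 passed the moderated test (adjusted p = 0.0321 and 0.0353). The call was lost when set 1 replicate 2 or 3, set 2 replicate 2 or 3, or No gRNA replicate 2 or 3 was left out, at log2 fold changes between 0.46 and 0.56, and edgeR did not call it in set 2. SUM159 cells had 7.36 ± 0.45 CPM (SD, n = 3) without a guide, 6.87 ± 0.44 with All gRNA and 6.44 ± 0.23 for gRNA 4, with no call.

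The atypical kinases PRKCI (ENSG00000163558, chromosome 3, 170222424 to 170305977) and PRKCZ (ENSG00000067606, chromosome 1, 2050411 to 2185395) differed between the MDA-MB-231 sets. PRKCI was 124.6, 127.8 and 114.1 CPM in No gRNA, against 167.4, 169.4 and 157.7 CPM in set 1 and 127.1, 135.8 and 127.0 CPM in set 2. PRKCZ was 42.2, 43.8 and 46.1 CPM in No gRNA, against 61.7, 65.0 and 57.0 CPM in set 1 and 36.5, 41.0 and 43.0 CPM in set 2. Set 1 was above the other groups for both kinases, and set 2 overlapped No gRNA. Both rose in set 1, PRKCI by 0.43 ± 0.05 (adjusted p = 5.77e-05) and PRKCZ by 0.47 ± 0.11 (adjusted p = 0.00683), and set 2 differed from No gRNA by 0.10 and -0.13 with no call, although PRKCI was called at 0.15 without No gRNA replicate 2. The difference between the sets was itself called, 0.33 ± 0.05 for PRKCI (adjusted p = 2.25e-04) and 0.60 ± 0.12 for PRKCZ (adjusted p = 0.00120). Of the annotated exon bases of PRKCZ, 7.67% overlap exons of FAAP20 on the other strand, and the strandedness of the libraries is not given in the sources used here.

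The 2 kinases had unlike distributions between the lines. Per kb of canonical transcript PRKCI was at 22.5 CPM in SUM159 No gRNA and 25.0 CPM in MDA-MB-231 No gRNA, the highest of the 10 genes in both. PRKCZ was at 18.5 CPM per kb in MDA-MB-231 No gRNA and 0.110 CPM per kb in SUM159 No gRNA. It stayed at or under 11.6 estimated counts in all 15 SUM159 libraries, with 14.0 counts summed over No gRNA, 16.0 over gRNA 4 and 17.6 over All gRNA. PRKCZ was thus expressed in ZEB1-positive MDA-MB-231 and stayed near the floor in SUM159 with and without ZEB1. It has several promoter windows, of which the first holds the 5 E-boxes shown above. Which start site gave these gene-level counts was not tested.

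**Figure D3:**
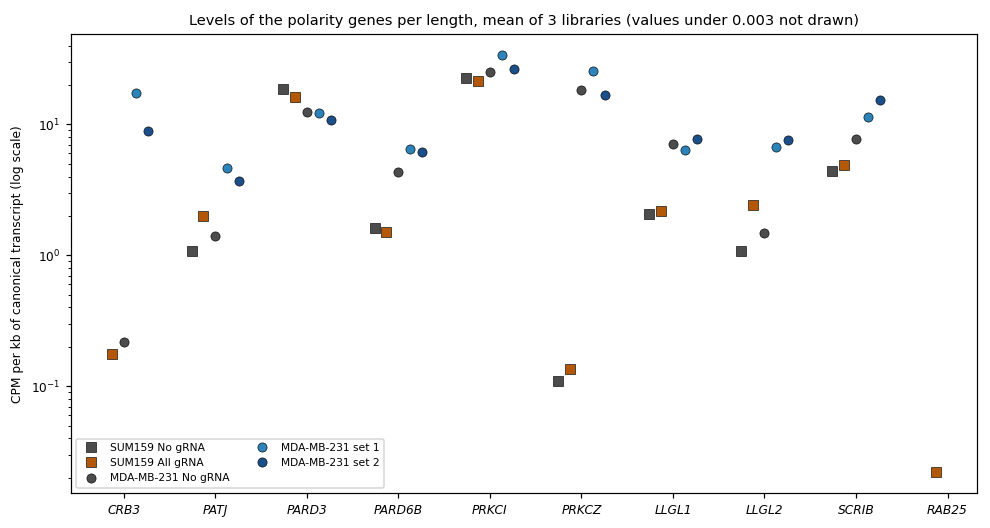
Mean CPM per kb of the canonical GENCODE transcript (log scale, n = 3 libraries) for SUM159 No gRNA and All gRNA (squares) and MDA-MB-231 No gRNA, set 1 and set 2 (circles). CRB3 moves from 0.218 in MDA-MB-231 No gRNA to 17.5 in set 1, above the 4.64 of PATJ and the 6.74 of LLGL2 in that set, and the RAB25 point in SUM159 All gRNA rests on 1.29 estimated counts in a single library.

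RAB25, the epithelial RAB11 relative (ENSG00000132698, chromosome 1, 156061160 to 156070504), was not detected in either line. It was listed at 0 in 24 of 27 libraries, and the other 3 held at most 2.30 estimated counts. Of these 3, 1 was a SUM159 All gRNA library and the others were wild type, and all 6 targeted MDA-MB-231 libraries were at 0. A count of 0 in the shallowest library allows up to 0.194 CPM by counting error alone. No fold is given, since all groups were at or under the floor.

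In order of level per kb, the genes of targeted MDA-MB-231 set 1 ran from PRKCI (33.7 CPM per kb), PRKCZ (25.7), CRB3 (17.5), PARD3 (12.3) and SCRIB (11.3) to LLGL2 (6.74), PARD6B (6.44), LLGL1 (6.43), PATJ (4.64) and RAB25 (0). LLGL2, PARD6B and LLGL1 lay within 1 SD of each other. In No gRNA of the same line CRB3 stood last but for RAB25, at 0.218 CPM per kb.

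The genes also differed between groups without ZEB1 guides. Between No gRNA and wild type, the moderated test called 3 of 7 genes in SUM159, all higher in No gRNA (PATJ, PARD6B and PRKCI), where 42.9% of all genes were called. In MDA-MB-231 it called 6 of 9, with PATJ, PARD3, PRKCI and PRKCZ higher and LLGL1 and SCRIB lower in No gRNA, where 53.8% were called. PRKCZ was 0.74 ± 0.13 higher and SCRIB 0.64 ± 0.06 lower in No gRNA on the log2 scale (adjusted p = 6.03e-04 and 2.61e-06). TREAT called 0 of these genes in either line, beside 1.53% and 3.6% of all genes, with 1 at an unadjusted p under 0.05 in SUM159 and 0 in MDA-MB-231. ZEB1 was 110.1 ± 10.0 CPM in No gRNA and 69.7 ± 4.22 CPM in wild type cells of that line (SD, n = 3). The vector, the selection and the choice of clones cannot be told apart in these comparisons.

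Between SUM159 wild type libraries of run 2 and run 1, 3 of 7 genes were called by the moderated test (62.1% of all genes). These were SCRIB, PARD3, which was 0.47 ± 0.05 lower in run 2 (adjusted p = 2.46e-04), and PATJ, which was 1.00 ± 0.32 higher (adjusted p = 0.0285). PATJ was no longer called when run 2 replicate 1, run 2 replicate 3 or any 1 library of run 1 was left out, while SCRIB and PARD3 stayed called in all 6 cases. SCRIB and PATJ are also genes called in set 1 and set 2, and the changes of those sets were taken within run 2.

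**Figure D4:**
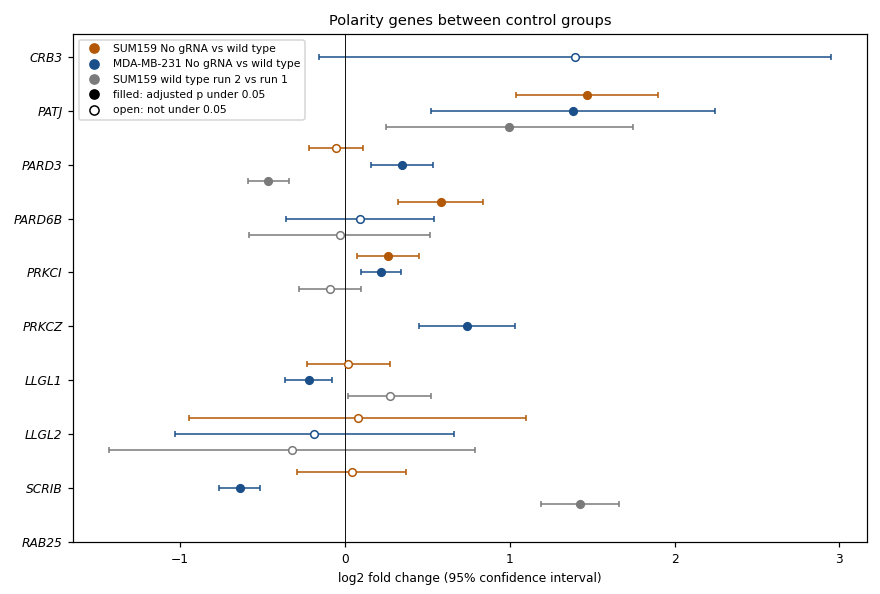
log2 differences between control groups with their 95% confidence intervals, for No gRNA against wild type in each line and for SUM159 wild type of run 2 against run 1; filled points have a moderated adjusted p under 0.05. PATJ lies above 0 in all 3 comparisons, and SCRIB is at -0.64 in the MDA-MB-231 comparison and at 1.43 between runs.

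The choice of guides was compared within each line. Between SUM159 All gRNA and gRNA 4, limma's moderated test called 0 of 7 genes, where 0.944% of all genes were called, with 1 gene at an unadjusted p under 0.05 and 0 by edgeR. The widest 95% interval was that of LLGL2, from -0.90 to 0.60 on the log2 scale, and that of PATJ went from -0.43 to 0.14. Between MDA-MB-231 set 1 and set 2 the moderated test called 5 of 9, with CRB3, PRKCI and PRKCZ higher and LLGL1 and SCRIB lower in set 1, where 51.5% of all genes were called. LLGL1 was 0.28 ± 0.07 lower in set 1 (adjusted p = 0.00449).

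Untransduced SUM159 and MDA-MB-231 cells of the same run differed in 5 of the 8 genes tested, where 75.6% of all genes were called. PARD3 was 0.56 ± 0.07 higher in SUM159. PRKCI, PARD6B, LLGL1 and PRKCZ were higher in MDA-MB-231, by 0.24 ± 0.05 and 1.90 ± 0.35 for the former pair (log2, adjusted p = 0.00435 and 0.00177). TREAT called LLGL1, at 10.4 ± 0.47 against 33.2 ± 0.79 CPM (SD, n = 3), and PRKCZ, at 0.253 ± 0.16 against 25.8 ± 5.999 CPM. These are 2 of 8 genes, where TREAT called 29.1% of all genes. PRKCZ passed the filter of this fit through the MDA-MB-231 libraries alone. Its higher value in that line was thus fixed by the filter, and its values are given as a description. With the SUM159 libraries of run 1 in place of those of run 2, SCRIB joined the called genes and PRKCI left them.

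The difference of the changes between the lines was then tested, as the mean change of set 1 and set 2 minus the mean change of gRNA 4 and All gRNA over 24 libraries. It was called for 3 of 9 genes (25.4% of all genes), each with the larger change in MDA-MB-231. These were SCRIB by 0.52 ± 0.14 (log2, moderated adjusted p = 0.00763), PARD6B by 0.68 ± 0.24 (adjusted p = 0.0438) and CRB3 by 3.33 ± 0.75. The SCRIB change in MDA-MB-231 was taken from a No gRNA group that lay below wild type, as given above. No call remained when replicate number 1 was left out of all groups and CRB3 alone when number 3 was, and edgeR called PARD6B and SCRIB. CRB3 passed the filter of this fit through the targeted MDA-MB-231 libraries alone, so that its larger change in that line was fixed by the filter, and its value is given as a description. The differences of PATJ (0.63 ± 0.30) and LLGL2 (0.97 ± 0.52) passed no test (adjusted p = 0.138 and 0.189), with 95% intervals from 0.00220 to 1.26 and from -0.11 to 2.05.

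A wider list of 47 other polarity and apical trafficking genes describes the setting of these results. Because it was chosen with earlier results of these data known, its counts are no independent test of its genes. In MDA-MB-231, 44 of them were tested, of which 20 were higher and 1 lower in set 1, beside 20.4% and 17.3% of all genes, and 21 higher and 6 lower in set 2, beside 27.3% and 25.1%, by the moderated test. TREAT called 4 and 6, all higher, beside 1.1% and 1.74% of all genes. In SUM159, 43 were tested, with 4 higher and 1 lower with All gRNA, beside 5.93% and 4.9% of all genes, and 5 higher and 3 lower with gRNA 4, beside 6.1% and 4.91%. TREAT called 0 with All gRNA (2 at an unadjusted p under 0.05) and 1 with gRNA 4, where 0.33% and 0.297% of all genes were called higher. The median log2 fold changes were 0.18 and 0.26 in set 1 and set 2 and -0.02 in both SUM159 comparisons, beside the medians over all genes given above. The genes tested include RAB11FIP4 in MDA-MB-231 and VAMP8 in SUM159, which passed the filter on low counts through the targeted groups alone.

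The 6 wider genes called by TREAT were MAL2, RAB17, RAB11FIP4, STX3, WWC1 and AP1M2. MAL2, a membrane protein of transcytosis to the apical surface, went in MDA-MB-231 from 5.81 ± 0.85 CPM (SD, n = 3) without a guide to 205.0 ± 17.5 for set 1 and 140.0 ± 19.3 for set 2, with log2 fold changes of 5.14 ± 0.23 and 4.59 ± 0.23 (SE). It was at most 0.154 CPM in any SUM159 group. RAB17, an epithelial GTPase of recycling endosomes, went from 2.39 ± 0.47 CPM to 24.2 ± 4.22 and 19.8 ± 2.60, and was at most 0.315 CPM in SUM159. Its summed SUM159 counts were 2.7 in No gRNA, 17.1 with All gRNA and 14.9 with gRNA 4. The lowest library held 0 counts with All gRNA and 0.35 with gRNA 4. Like CRB3, MAL2 and RAB17 stayed near 0 in SUM159 and were far higher in targeted MDA-MB-231 cells than in its controls.

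RAB11FIP4, an effector of RAB11, was the wider gene with a TREAT call in both lines. SUM159 had 2.87 ± 1.82 CPM without a guide, 13.4 ± 2.28 with All gRNA and 14.9 ± 1.82 for gRNA 4, and MDA-MB-231 had 0.607 ± 0.47 CPM without a guide, 7.96 ± 0.56 for set 1 and 7.65 ± 0.54 for set 2. In the order gRNA 4, All gRNA, set 1 and set 2, its log2 fold changes were 2.51 ± 0.31, 2.37 ± 0.31, 4.22 ± 0.55 and 4.18 ± 0.55, and the TREAT adjusted p was 0.0472, 0.0964, 0.00517 and 0.00303. In MDA-MB-231 it passed the filter on low counts through the targeted groups alone. Its p-values in set 1 and set 2 were thus conditioned by the filter, and its differences there are given as a description. Its difference between the lines was not called (1.74 ± 0.63, adjusted p = 0.0501). STX3, the apical t-SNARE, rose in MDA-MB-231 from 53.9 ± 2.86 CPM without a guide to 138.1 ± 2.83 for set 1 and 138.5 ± 5.12 for set 2, and in SUM159 with gRNA 4 by 0.50 ± 0.13 on the log2 scale (adjusted p = 0.0333).

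WWC1, the scaffold KIBRA that binds atypical protein kinase C, and AP1M2, the epithelial AP-1 adaptor subunit of basolateral sorting, were called by TREAT in set 2 alone. WWC1 was 99.3 ± 9.48 CPM in No gRNA, against 175.5 ± 7.21 in set 1 and 307.6 ± 12.9 in set 2, and was lower in set 1 than in set 2 by 0.82 ± 0.06 on the log2 scale (adjusted p = 2.59e-07). AP1M2 was 12.9 ± 1.09 CPM in No gRNA, against 15.8 ± 1.70 in set 1 and 43.99 ± 2.55 in set 2, but 45.9 ± 0.75 in wild type cells. Its call in set 2 is therefore a difference from a No gRNA group that lay below wild type by 1.90 ± 0.09 on the log2 scale.

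**Figure D5:**
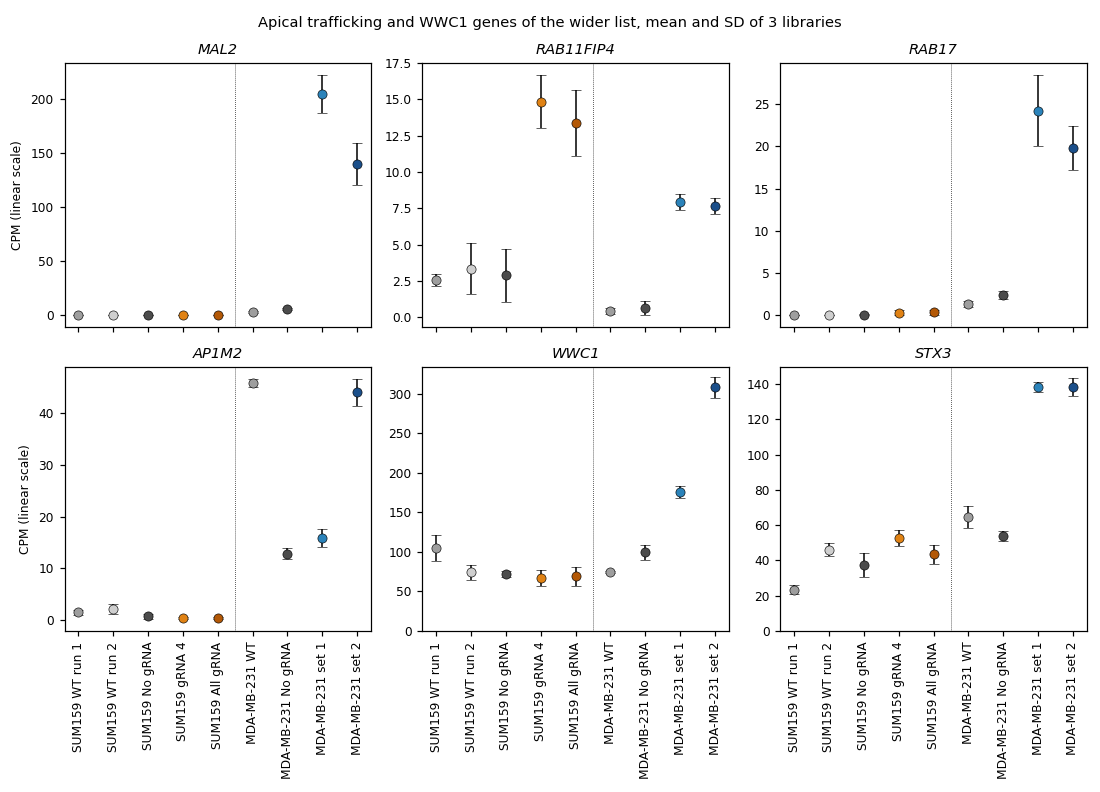
Mean CPM (linear scale, a separate range for each gene) with SD of 3 libraries for the 6 wider genes called by TREAT, in the 9 groups; the dotted line separates the lines. MAL2, RAB17 and STX3 are highest in set 1 and set 2, RAB11FIP4 is raised in the targeted groups of both lines, and AP1M2 is as high in wild type MDA-MB-231 (45.9 CPM) as in set 2 (43.99 CPM).

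The genes whose group means were most like those of CRB3 and LLGL2, the members with a TREAT call, were sought among 17318 others over the 9 groups. For CRB3 they were ATP2C2, PTAFR and ENTPD2, with a Pearson r of log2 CPM of 0.992, 0.990 and 0.989. For LLGL2 they were PKP3, HSH2D and STX17, with an r of 0.981, 0.978 and 0.974. The 9 group means share line and run, so that a high r follows for many genes that differ between MDA-MB-231 targeted cells and the rest.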

How the data were processed

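Per the labels and the study's methods, the authors sequenced RNA from SUM159 and MDA-MB-231 cells as 50 bp single-end reads, quantified it with Salmon and imported it with tximport. The deposited table gives estimated counts for each gene, scaled for transcript length and not normalized between libraries. The build is GRCh38 per the submitters' processing notes, and the annotation, Salmon version and strandedness are not given in the sources used here. Of 57165 gene identifiers, 56347 matched a symbol, and 0 columns were left out.

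The methods name voom-limma with TREAT, which was the main test here (R 4.3.3, limma 3.58.1, edgeR 4.0.16, voom offset 0.5, two-sided). Each line was fitted over its 12 libraries with TMM scaling, unrounded counts and filterByExpr at a minimum count of 10. TREAT used a log2 threshold of 1, and Benjamini-Hochberg adjustment ran over all genes. Estimated counts were rounded for the edgeR and DESeq2 1.42.0 alternatives. CPM uses TMM over 27 libraries, with a prior count of 2 on the log2 scale. The floor was 3 counts over a group. Positions and transcript lengths are from GENCODE v44. The steps were tested on simulated data. P-values measure the spread between libraries.

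The members and gene lists were chosen with earlier results of these data known. Named besides the members were wider-list genes called by TREAT in a comparison with No gRNA, up to 8 by size of change, and the 3 genes most like each member called by TREAT. Alternatives were other tests, scalings, filters, controls and sets of libraries.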

Additional observations from a re-analysis of the deposited data

Results flagged for a closer look

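The change after ZEB1 targeting differed between the lines, by the test of the difference itself, for 3 of 9 genes tested, beside 25.4% of all genes. The change in MDA-MB-231 was larger than that in SUM159 by 3.33 on the log2 scale for CRB3, by 0.68 for PARD6B and by 0.52 for SCRIB. For CRB3 the SUM159 libraries held 4.55 estimated counts or fewer. For SCRIB the wild type level of SUM159 was 23.8 CPM in run 1 and 63.7 CPM in run 2, and the changes in MDA-MB-231 were measured in run 2 and those in SUM159 in run 1. The SCRIB change in MDA-MB-231 was also taken from a No gRNA group below wild type. The means were 43.2 CPM in No gRNA, 63.5 CPM in set 1, 86.4 CPM in set 2 and 64.5 CPM in wild type cells. CRB3 passed the filter on low counts through the targeted MDA-MB-231 libraries alone. None of the 3 was called when replicate number 1 was left out of all groups and CRB3 alone when number 3 was, edgeR did not call CRB3, and 2 were called with the replicate block. Line and run cannot be told apart for these differences.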

How the results depend on the processing

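Of 205 counts of called members recomputed under alternatives, 187 stayed within 1.5 times the reported count. With DESeq2's own test the moderated count was 2 in both SUM159 comparisons in place of 1, and the TREAT count in set 1 was 2 with edgeR and 2 with DESeq2 in place of 1. With all genes of at least 1 count the moderated count with All gRNA was 2. With wild type as the control, the TREAT counts were 1 and 1 in SUM159 and 3 in set 1, and the moderated counts 4 and 4 in SUM159. Leaving out replicates gave moderated counts between 1 and 2 with gRNA 4, TREAT counts between 1 and 2 in set 2, and between 0 and 2 called members for the difference between the lines. Of 480 single values, 439 kept direction and call, 15 lost and 12 gained a call, and 14 reversed. With wild type as the control, PARD6B reversed to 0.49 and PRKCI to 0.18 with All gRNA, PARD6B to 0.38 with gRNA 4, PARD3 to 0.33 and SCRIB to -0.085 in set 1, and PARD3 to 0.15, PRKCZ to 0.61 and LLGL1 to -0.079 in set 2. Leaving out libraries turned the direction of uncalled values, which ran from -0.15 to 0.0080 for PRKCI with All gRNA, reached -0.031 and -0.041 for LLGL1 with gRNA 4, and ran from -0.093 to 0.055 for PARD3 in set 1, where a further value was 0.010. The causes were not tested.

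The replicate numbers gave no sign of pairing, with correlations of same-numbered libraries between -0.035 and 0.045 over 12 pairs, of which 6 matched their own number best. With the replicate block the members called were 0 by TREAT and 1 by the moderated test in both SUM159 comparisons, 1 and 7 in set 1 and 2 and 5 in set 2, and the 32 member values of these 4 comparisons kept direction and call. For the difference between the lines, the block gave 2 called members in place of 3. Depth limited CRB3 and PRKCZ in SUM159 and RAB25 in both lines.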

Other observations

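Among the wider polarity genes, several differed between set 1 and set 2 of MDA-MB-231 while one set stood near No gRNA and the other near wild type. The genes of this section were chosen after their values were seen, so their p-values are given as a description. DLG4, a scaffold of the DLG family, was 22.3 CPM in wild type cells and 18.1 CPM in set 2, but 50.0 CPM in No gRNA and 43.4 CPM in set 1. ERBIN, a basolateral LAP protein, was 176.4 and 200.9 CPM in the former pair and 320.3 and 393.7 CPM in the latter. AP1M2 had the reverse order, with 45.9 and 43.99 CPM against 12.9 and 15.8 CPM. The log2 difference of set 2 from No gRNA was -1.45 ± 0.13 (SE) for DLG4, -0.68 ± 0.08 for ERBIN and 1.78 ± 0.09 for AP1M2 (limma moderated adjusted p = 2.67e-06, 4.22e-05 and 3.55e-08). By the same test, 27.3% of all genes were higher and 25.1% lower in set 2.

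In SUM159, PARD3B, a PARD3 paralogue, fell with both guide sets, by 0.88 ± 0.09 with All gRNA and by 0.82 ± 0.09 with gRNA 4 on the log2 scale (SE, adjusted p = 7.75e-05 and 1.26e-04). It was 28.6 CPM in No gRNA, 15.5 CPM with All gRNA and 16.3 CPM with gRNA 4, but 11.8 CPM in wild type cells of run 1 and 35.2 CPM in wild type cells of run 2. MYO5B, the motor that carries RAB11 endosomes, rose from 4.53 CPM to 12.8 and 11.4 CPM (1.42 ± 0.28 and 1.32 ± 0.28, adjusted p = 0.00711 and 0.0107), and wild type cells had 8.37 CPM in run 1 and 1.63 CPM in run 2. VAMP8, a SNARE of regulated secretion, was 0.480 CPM in No gRNA and 2.34 and 2.56 CPM in the targeted groups, with 0.369 and 0.839 CPM in wild type cells of the runs. It passed the filter on low counts in SUM159 through the targeted groups alone and is given as a description.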
